A study of Mus musculus with 211 samples.

Results

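Notch signalling passes between neighbouring cells. A ligand on one cell, such as Jag1 or Dll1, pulls on a Notch receptor of the next, Adam10 and then gamma-secretase cut the receptor, and the freed intracellular part joins the DNA-binding protein Rbpj to switch on genes such as Hes1. The fringe enzymes Lfng, Mfng and Rfng add sugars to the receptor in the Golgi and change which ligand it answers to. In the developing cochlea this pathway sets the pattern of hair cells and supporting cells, and Lfng is expressed in supporting cells.

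The 10 genes described are the receptors Notch1 and Notch2, the fringes Lfng, Mfng and Rfng, the ligands Jag1 and Dll1, the protease Adam10, the transcription factor Rbpj and the target Hes1. They were found by matching Ensembl identifiers to gene symbols, and all 10 were among the 48709 genes of the count table. The table holds full-length single-cell RNA-seq read counts of 211 cells from adult mouse cochleae, sorted as GFP-positive from LfngEGFP mice, which carry a bacterial artificial chromosome with EGFP under Lfng regulatory sequence on a CD1 background. Of the cells, 48.3% came from postnatal day 60 (P60) and 51.7% from day 120 (P120), all from unmanipulated animals of either sex and all carrying the transgene, so no reporter-negative group was included. Cells came in 12 captures, each a microfluidic chip loaded with cells pooled from several mice, 8 captures at P60 and 4 at P120. The capture was taken as the replicate. It is a pool and not an animal, so p-values measure the spread between captures.

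The sorted population was labelled as supporting cells, and the counts went against that label for most cells. Genes of a list of 14 supporting cell markers held 0.0401% of all gene reads, between 4.97e-06% and 1.59% per capture, and 5 of 211 cells had 10 or more reads of at least 3 of them. A list of 12 neutrophil genes held 16.2% of the reads, between 2.15% and 26.2% per capture, with 197 cells above that mark, and a list of 10 general leukocyte genes was above it in 171 cells. No gene of the supporting cell, leukocyte or neutrophil lists was at 0 over all cells. Hair cell, endothelial, fibroblast and glial lists held between 0.000846% and 0.0137% of the reads each. The values below are therefore given for GFP-sorted cells and not for supporting cells. The part of the other cell types in each result was not tested, except where values for cells split by markers are given.

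Depth varied widely. A cell had between 41 and 5361476 reads on genes, with a median of 736455, and 33 cells had fewer than 10000 reads. Capture 10c held 119240 reads in 13 cells, with a median of 451 per cell. In capture 9c, spiked-in control RNA took 30720362 reads against 13227840 on genes. Shares of cells were therefore compared after thinning each cell with enough reads to 50000, which left 164 cells. The method counts reads without molecular identifiers, so the exact binomial 95% intervals cover counting error only.

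A promoter and a set of primers place the genes that carry most of the results. The promoter of Lfng is shown because the reporter that chose the cells was built on this gene. The stretch is chr5:140607091-140607319 of GRCm38.p6 on the plus strand, from RefSeq, and ends before the first transcribed base of the Lfng gene (ENSMUSG00000029570.5) at 140607320. Capitals mark the letters GTGGGAA, a core that Rbpj binds, which lie at 140607232 to 140607238, before the RefSeq start site at 140607341.
Lfng promoter: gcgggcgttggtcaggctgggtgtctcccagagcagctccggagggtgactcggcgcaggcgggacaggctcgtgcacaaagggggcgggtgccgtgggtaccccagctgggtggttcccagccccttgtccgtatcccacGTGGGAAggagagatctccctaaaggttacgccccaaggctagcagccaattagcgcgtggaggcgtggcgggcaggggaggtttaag

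The letters GTGGGAA, or TTCCCAC for the other strand, were searched for in the 250 bp before each start site of the RefSeq table. They were present in 1779 of 32851 promoters, or 5.42%. Of the 8 members with an entry (Adam10, Dll1, Jag1, Lfng, Notch1, Notch2, Rbpj and Rfng), only the Lfng promoter held them. A match is a description of letters and not a site of binding.

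The primer pairs that the study designed for droplet digital PCR of Lfng and Notch2 are shown because these were the receptor and the fringe found in the most cells below, and they mark where each transcript was probed. Each pair was matched to GENCODE vM21 transcripts and lies in coding sequence on either side of an exon junction. The Lfng pair spans exons 1 and 2 of 8, at chr5:140607801-140607820 and chr5:140611853-140611874, and gives a product of 69 bp. The Notch2 pair spans exons 4 and 5 of 34, at chr3:98072884-98072903 and chr3:98081975-98081995, and gives 118 bp. All 4 coordinates are of GRCm38, and both genes lie on the plus strand.
Lfng forward: tcgatctgctgttcgagacc
Lfng reverse: cctccccatcagtgaagatgaa
Notch2 forward: agactggcgacttcactttc
Notch2 reverse: tccacacaaactcctccattc

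Notch2 was the most widely detected of the 10 genes. It had at least 1 read in 155 of 211 cells (73.5%, interval 67 to 79.3%), and in 65.9% of the 164 thinned cells ( interval 58.1 to 73.1%). Levels were taken as CPM, the reads of a gene in the summed cells of a capture scaled to the same total of gene reads in each. At P60, Notch2 (ENSMUSG00000027878.11, chr3:98013527-98150361) ranged from 8.39 to 973 CPM with a median of 294 over 8 captures. At P120 it was at 171 CPM in capture 28, 115 in capture 32, 836 in capture 36 and 1266 in capture 38. All 12 captures held Notch2 reads, and the ages overlapped. Its reads were spread over many cells, since the top 3 cells held 19% of them.

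Notch1, the receptor that is best known for its role in setting hair cell number, was at lower levels and in fewer cells. It had a read in 62 of 211 cells (29.4%, interval 23.3 to 36%) and in 23 of 164 thinned cells (14.02%). At P60, Notch1 (ENSMUSG00000026923.15, chr2:26457903-26516663) ranged from 0 to 105.4 CPM with a median of 1.23. At P120 it was at 86.8 CPM in capture 28, 7.40 in capture 32, 5.37 in capture 36 and 1.07 in capture 38. Capture 31 at P60 and capture 28 at P120 stood far above the others. The top 3 cells held 81% of all 8025 Notch1 reads and the top cell, of capture 28, held 40.2%, so the capture levels of Notch1 followed a few cells.

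Lfng, the fringe whose regulatory sequence drove the reporter, had a read in 120 of 211 sorted cells (56.9%, interval 49.9 to 63.7%). After thinning it was read in 76 of 164 cells (46.3%, interval 38.5 to 54.3%). At P60, Lfng ranged from 0 CPM, in the shallow capture 10c, to 90.4 with a median of 40.9. At P120 it was at 13.4 CPM in capture 28, 12.8 in capture 32, 75.7 in capture 36 and 22.1 in capture 38. Capture 36 stood above the other P120 captures and within the range of P60. Lfng reads were spread over cells about as evenly as those of Notch2, with 18% in the top 3 cells.

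The other fringes were rare. Mfng (ENSMUSG00000018169.12, chr15:78755882-78773475) had a read in 14 of 211 cells (6.64%, interval 3.67 to 10.9%) and Rfng (ENSMUSG00000025158.7, chr11:120780746-120784207) in 18 (8.53%, interval 5.13 to 13.1%). After thinning, each was read in 6 of 164 cells (3.66%, interval 1.35 to 7.79%). Over the captures with at least 3 thinned cells, the highest share was 9.52% for both, in capture 32. The lowest share of Lfng over these captures was 22.6%, in capture 28. Mfng reached 29.8 CPM in capture 40 at P60, and at P120 it was at 0.904 CPM in capture 28, 23.6 in capture 32, 0 in capture 36 and 45.1 in capture 38. Rfng reached 18.8 CPM at P60, again in capture 40, and at P120 it was at 29.4 CPM in capture 28, 15.4 in capture 32, 0.110 in capture 36 and 0 in capture 38. Mfng was without a read in 7 of the 12 captures. The top 3 cells held 92.8% of the Mfng reads and 83.4% of the Rfng reads.

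Of the ligands, Jag1 was present in a minority of cells and Dll1 was not seen. Jag1 (ENSMUSG00000027276.7, chr2:137081456-137116644), a marker of supporting cells in the organ of Corti, had a read in 51 of 211 cells (24.2%, interval 18.6 to 30.5%) and in 23 of 164 thinned cells (14.02%). At P60 it ranged from 0 to 199 CPM with a median of 20.8, and at P120 it was at 63.05 CPM in capture 28, 4.88 in capture 32, 0 in capture 36 and 28.7 in capture 38. Capture 21c at P60 held the highest level. Dll1 (ENSMUSG00000014773.13, chr17:15367354-15376872), the ligand that young hair cells make, had 0 reads in 211 cells, which allows, at 3 counts, a share of cells with a read of up to 1.42% and a level of up to 0.0136 CPM over 220154506 reads. This limit does not cover cells that make the RNA without a read, and 33 of the cells had under 10000 reads.

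Adam10, the protease that cuts the receptor outside the membrane, was the second most abundant of the 10 by CPM. It had a read in 110 of 211 cells (52.1%, interval 45.2 to 59%) and in 53 of 164 thinned cells (32.3%, interval 25.2 to 40.1%). At P60, Adam10 (ENSMUSG00000054693.14, chr9:70678997-70780229) ranged from 0.147 to 816 CPM with a median of 178. At P120 it was at 227 CPM in capture 28, 244 in capture 32, 0.986 in capture 36 and 406 in capture 38. Captures 19c, 20c and 36 were each below 1 CPM, while 7 captures were between 227 and 816 CPM. Notch2 had a wider range in CPM, from 8.39 to 1266, but no capture below 1 CPM. The top cell, of capture 40, held 25.6% of the Adam10 reads, and the top 3 cells held 44.4%.

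Rbpj, through which all Notch receptors act on DNA, had a read in 61 of 211 cells (28.9%, interval 22.9 to 35.5%) and in 25 of 164 thinned cells (15.2%). At P60, Rbpj (ENSMUSG00000039191.12, chr5:53466152-53657362) ranged from 0 to 53.4 CPM with a median of 3.46, and at P120 it was at 29.3 CPM in capture 28, 76.6 in capture 32, 0.329 in capture 36 and 22.5 in capture 38. Hes1 (ENSMUSG00000022528.7, chr16:30064384-30067796), a direct Notch target, had a read in 4 of 211 cells (1.90%, interval 0.519 to 4.78%), all of them at P120. One cell of capture 28 held 153 of the 158 Hes1 reads, and that cell had 0 reads of Notch1 and of Notch2. The other 3 cells had 1 or 2 Hes1 reads.

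**Figure D1:**
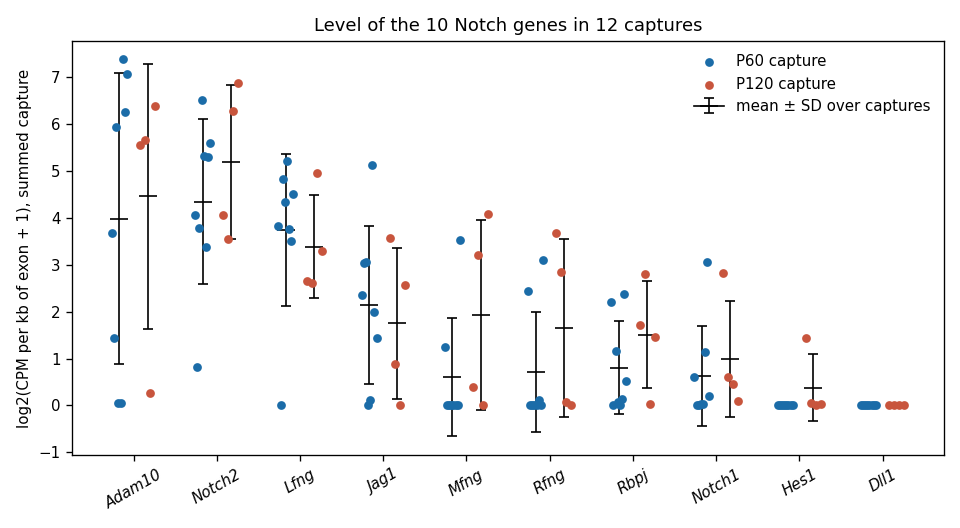
Level of each of the 10 genes in 12 captures, as log2 of CPM per kb of exon plus 1 (y axis), with genes in order of mean level (x axis), P60 captures in blue, P120 captures in red and bars for the mean ± SD over captures of one age. Adam10, Notch2 and Lfng lie highest, the ages overlap for each gene, and Dll1 is at 0 in each capture.

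To compare levels between genes, CPM was divided by the length of each gene's merged exons. The mean over 12 captures was 52.4 ± 55.3 CPM per kb (SD, n = 12) for Adam10, 39.6 ± 37.2 for Notch2 and 15.9 ± 11.2 for Lfng. Jag1 was at 6.18 ± 9.45, Mfng at 3.03 ± 5.42, Rfng at 2.52 ± 4.04, Rbpj at 1.64 ± 2.01 and Notch1 at 1.37 ± 2.56. Hes1 was at 0.147 ± 0.495. Neighbours in this order were compared by an exact two-sided sign-flip test over the 12 captures on log2(CPM per kb + 1), with p adjusted over 9 pairs. Only the step from Notch1 down to Hes1 passed, with a mean log2 difference of 0.63 (SD 0.90), 10 of 12 captures higher and an adjusted p of 0.0176 by the exact test. The order was taken from the same 12 captures, so the pairs were not chosen apart from the values tested. With 153 of the 158 Hes1 reads in 1 cell, this step shows little beyond the near absence of Hes1 reads. Notch2 over Lfng had a log2 difference of 1.003 (SD 1.23) with 10 of 12 captures higher, and its adjusted p by the exact test was 0.0703. On the log scale, the mean of Adam10 was 0.49 below that of Notch2 (SD 3.49), the opposite of their order on the linear scale. The other 6 steps had adjusted p-values between 0.154 and 0.984 by the exact test.

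A pair of cells of capture 21c carried strong supporting cell signatures, with 2614 and 19979 reads of Otog, the gene of an inner ear membrane protein, and neutrophil genes took 0.00373% and 0.00268% of their reads. They held 706 and 221 Jag1 reads, or 1096 and 103.99 CPM. Notch1 had 2 and 23 reads in them, Lfng 69 and 2, and Notch2 3 and 0. These 2 cells held 15.2% of all Jag1 reads in the 211 cells, against 0.00307% of the Notch2 reads. The 3 other cells above the supporting cell mark, 1 in capture 9c and 2 in capture 28, added few reads, so that all 5 held 15.6% of the Jag1 reads, 1.09% of the Lfng reads and 0.0502% of the Notch2 reads. The cell with the most Jag1 reads was not among these 5. It was in capture 28 and held 1851 reads, or 30.3% of all Jag1 reads.

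The ages were compared on summed captures with edgeR's quasi-likelihood test, adjusted over all 8346 genes tested. 5 genes were higher and 5 lower at P120, and 443 had an unadjusted p under 0.05. With DESeq2 size factors in the same test, the split was 39 higher and 3 lower. None of the 8 members tested was among the genes called, beside 0.12% of all genes, and none had an unadjusted p under 0.05. Dll1 and Hes1 did not pass the filter on low counts. The log2 difference of P120 from P60 was 1.20 (SE 1.36) for Notch2, 0.32 (SE 1.93) for Lfng, 0.13 (SE 2.18) for Notch1 and -0.38 (SE 1.56) for Adam10. It was 2.11 (SE 2.17) for Mfng, 1.32 (SE 2.09) for Rfng, 0.91 (SE 2.13) for Rbpj and -1.39 (SE 2.15) for Jag1, and the adjusted p was 0.99996 for each of the 8. The median over the 8 was 0.61, against 0.26 over all genes tested. All 6 captures of sequencing run S047 were from P60, and of the other 6 captures, split over the S059 runs, 2 were from P60, so age and run were partly confounded. With run as a covariate, none of 11544 genes was called by edgeR and 783 had an unadjusted p under 0.05. This covariate set S047 against S059 and did not separate the S059 runs from each other.

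The share of cells with a read did not separate the ages either. In the 10 captures with at least 3 thinned cells, Lfng was read in 55.6% ± 20.5 of cells at P60 (SD, n = 6) and 37.2% ± 11.6 at P120 (SD, n = 4), a difference of -18.3 percentage points. Its exact two-sided permutation p was 0.152, and 0.981 adjusted over the 9 members with a read, where 0.00952 is the smallest p the design allows. Notch2 was read in 65.8% ± 16.5 and 61.5% ± 13.2 of cells, Adam10 in 24.6% ± 21.7 and 26.3% ± 19.4, and Notch1 in 17.6% ± 20.1 and 9.88% ± 4.69. The adjusted p by the exact permutation test was 0.981 for each of the 9.

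**Figure D2:**
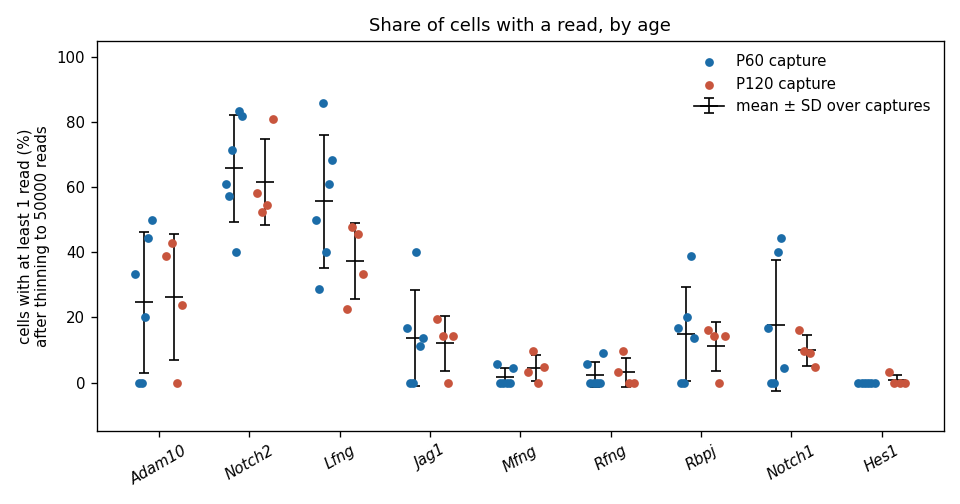
Percentage of cells with at least 1 read of each gene after thinning to 50000 reads (y axis), per capture, with 6 P60 captures in blue, 4 P120 captures in red and bars for the mean ± SD. The ages overlap for all 9 genes shown, and Lfng has means of 55.6% at P60 and 37.2% at P120.

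The metadata give each cell a normalized GFP intensity, which was set against the fringe genes. The scale reached 1000 in 10 of 12 captures, so that it looks set within captures, and cells were compared within a capture. In the 9 captures with at least 2 thinned cells on each side, cells with an Lfng read differed from cells without one by 3.13 ± 154 units (SD, n = 9), with 5 of 9 captures higher and an exact two-sided sign-flip p of 0.941. Captures pulled in opposite directions. In capture 9c the mean was 402 in 9 cells with an Lfng read and 196 in 9 cells without, and in capture 32 it was 544 against 322. In capture 36 it was 563 against 807, and in capture 28 it was 247 against 423. The other 5 captures differed by between -61.0 and 61.5 units.

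GFP intensity also differed between the sequencing runs of one capture. In 3 of the 6 captures split over runs, Lfng was read in more thinned cells of the run with the higher median GFP, and in the other 3 in fewer. In capture 32, the median GFP was 80 in the 11 cells of run S059iso1 and 697 in the 16 cells of S059iso2, and Lfng was read in 20.0% and 72.7% of their thinned cells. In capture 28, the medians were 76 and 345 and the Lfng shares 40.0% and 19.2%. Within capture and run, the Lfng difference was -28.3 ± 115 units (SD, n = 9), with an exact sign-flip p of 0.461.

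Mfng and Rfng were too rare to test against GFP. In capture 32, the 2 thinned cells with an Mfng read had a mean GFP of 117, against 461 in 19 cells without, and the 2 with an Rfng read a mean of 121, against 460. In capture 40, the 2 cells with an Rfng read had 162, against 356 in 20 without. Cells with an Rfng read therefore differed by -267 ± 102.3 units (SD, n = 2), where 0.500 is the smallest p that the exact test allows, and Mfng could be compared in only 1 capture. Within capture and run these differences were -123 units for Rfng and -63.4 for Mfng. The thinned cells with an Rfng read in captures 32 and 40 were all in the granule precursor class described below. The median GFP of that class was 145, against 378 in the other cells, so Rfng and class cannot be told apart here. Over all 211 cells without thinning, the median GFP was 366 in cells with an Lfng read and 360 in cells without, 226 and 362 for Mfng, and 209 and 370 for Rfng. For the rare fringes, medians pooled over captures went opposite ways at the 2 ages. At P60 the medians were 533 in 5 cells with an Mfng read and 309 without, and 429 in 7 cells with an Rfng read and 310 without. At P120 they were 151 in 9 cells and 416 without for Mfng, and 80 in 11 cells and 436 without for Rfng. These medians mix captures, although the score looks set within captures, and not every capture followed them. Over all cells without thinning, the Rfng difference within P60 capture 40 was -43.9 units. The Mfng difference within P120 capture 28 was 83.7 units. The other captures that could be compared went with the pooled medians. The difference between ages was not tested.

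Outside the fringes, GFP was set against the other members as a description across thinned cells, which share captures and runs. Spearman's rho with GFP over 164 cells was -0.28 for Adam10 and 0.19 for Notch2, against 0.09 for Lfng. Within captures of at least 10 such cells, rho for Adam10 was below 0 in 5 of 6, from -0.65 in the 21 cells of capture 38 to 0.08 in the 18 cells of capture 9c. For Notch2 it was above 0 in 6 of 7, from -0.37 in the 11 cells of capture 36 to 0.48 in capture 38. For Lfng it was above 0 in 5 of 7, from -0.66 in capture 36 to 0.64 in capture 9c.

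Between captures, mean GFP and the level of the fringes were compared over 12 captures, on log2(CPM + 1). If the score was set within captures, its means are not on one scale between captures. These values then cannot decide whether fringe level and GFP were linked. Pearson's r was -0.0039 for Lfng (permutation p 0.886), -0.237 for Mfng (p 0.479) and -0.310 for Rfng (p 0.328). Spearman's rho was -0.126 for Lfng (permutation p 0.695), -0.265 for Mfng (p 0.409) and -0.0508 for Rfng (p 0.879). Adjusted over the 3 genes, the lowest permutation p was 0.719. Without captures 21c and 36, the farthest from the median GFP, r was -0.286, 0.0248 and -0.159.

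**Figure D3:**
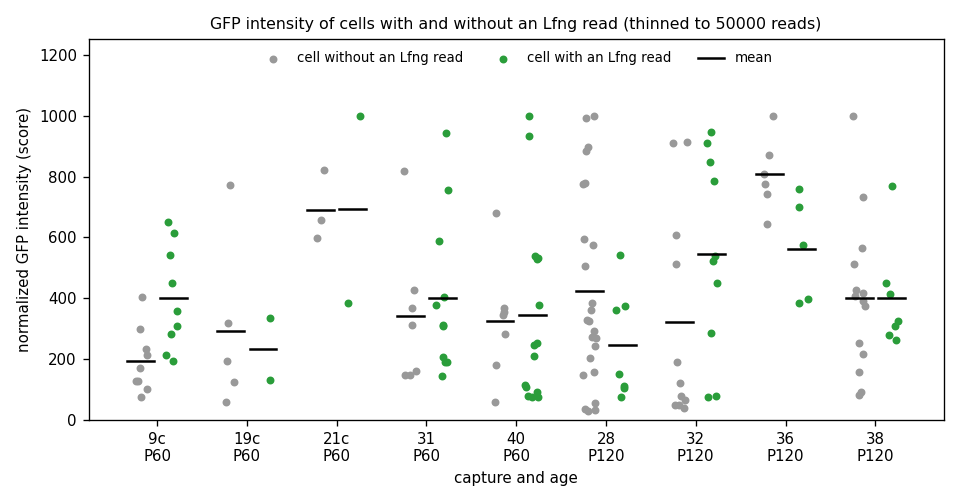
Normalized GFP intensity (y axis, score) of each thinned cell without an Lfng read (grey) and with one (green) in 9 captures (x axis, with age), with black lines for means. The 2 kinds of cell overlap in all 9 captures, and the mean is higher with an Lfng read in captures 9c and 32 and lower in captures 28 and 36.

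Most cells held reads of few of the 10 genes. Of 164 thinned cells, 20 (12.2%) had no member, 43 (26.2%) had 1, 51 (31.1%) had 2 and 30 (18.3%) had 3, and 1 cell had 6. Notch2 and a fringe were read together in 61 cells (37.2%), Notch2 without a fringe in 47 (28.7%), a fringe without Notch2 in 21 (12.8%) and neither in 35 (21.3%). Both receptors were read in 14 cells (8.54%). A receptor together with Jag1 was read in 18 cells (10.98%), and a receptor with Adam10 and Rbpj in 15 (9.15%).

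As a description across cells, which share captures and library complexity, the pairs had weak correlations. Spearman's rho of log2(CPM + 1) over 164 cells had a median of -0.03 over 36 pairs and ran from -0.13 to 0.25. Lfng was read in 53.7% of the cells with Notch2 and in 32.1% of the cells without it, with rho 0.18. The highest values were among genes other than the receptors, with 0.25 for Rbpj and Adam10, 0.24 for Jag1 and Adam10 and 0.24 for Rfng and Adam10. Each of these pairs held Adam10, whose median rho with 2155 genes was 0.20, so these values lay near that background. Rbpj and Adam10 were read together in 16 cells, 64% of the cells with Rbpj and 30.2% of the cells with Adam10. In 11 of the 36 pairs no cell held both genes, and 8 of these 11 included Hes1.

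**Figure D4:**
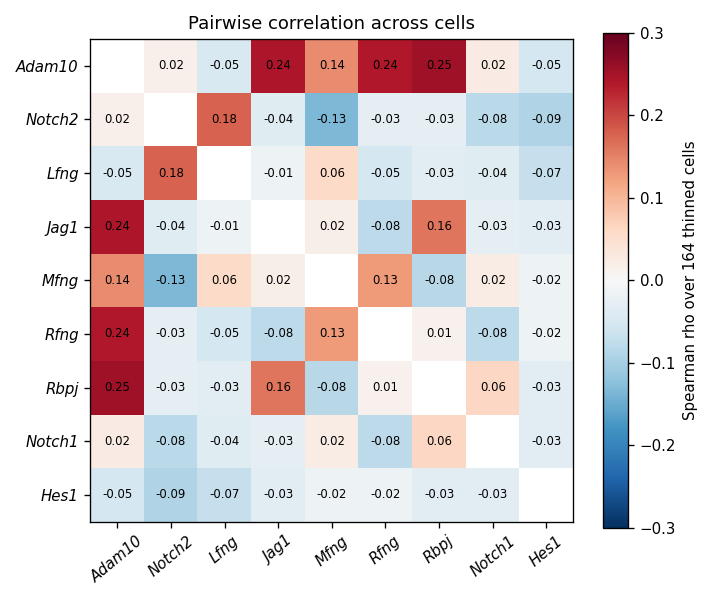
Spearman's rho between each pair of the 9 detected genes over 164 thinned cells (colour scale from -0.3 to 0.3, values printed), with genes in order of mean level. Values lie between -0.13 and 0.25, and those of Adam10 with Rbpj, Jag1 and Rfng are highest.

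For the 3 genes read in at least 20% of thinned cells, the genes with the most similar pattern were sought among 2155 genes. For Notch2 these were Iqsec1 (rho 0.42), Actb (0.41) and Btg1 (0.39), with a median of -0.04 over all genes compared. For Lfng they were S100a11 (0.31), which codes for a calcium-binding protein, Slfn2 (0.27) and Btg1 (0.26), with a median of -0.01. For Adam10 they were Psmb6 (0.52), a proteasome subunit, Ywhae (0.50) and Rps15a (0.50), a ribosomal protein, and here the median over all genes was 0.20. None of them was on the list of Notch pathway genes.

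Cells were also split by the granule genes of young granulocytes. A cell was put in a granule precursor class when at least 2 of Elane, Mpo, Prtn3 and Ctsg were at 50 CPM or more, which took 35 of the 164 cells with 50000 reads. Between 25 and 100 CPM lay 6 cells below the cut and 3 above it. The precursor class held more genes per thinned cell, with a median of 2558 against 883 in the 129 other cells, and its median GFP was 145 against 378. Captures 9c, 40, 28 and 32 had at least 3 cells of each class.

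Adam10 was found in more cells of the precursor class. It was read in 25 of 35 precursor cells (71.4%) and in 28 of 129 other cells (21.7%). Per capture the share was 75% against 21.4% in capture 9c, 75% against 35.7% in capture 40, 63.6% against 25% in capture 28 and 57.1% against 35.7% in capture 32. The classes did not overlap over these 4 captures, and the same held for 35.5% of the 2156 genes read in at least 20% of thinned cells, so Adam10 shared this with many genes. With 4 captures, a sign-flip test cannot go below an exact p of 0.125, so none was run. Its level was not shifted in the same way, with 286 CPM in precursor cells and 353 in other cells over all captures, and a log2 difference of -0.44 (SE 0.97) in the fit. The share moved together with the number of genes per cell, whose part in it was not tested. Pooled over captures, 4 other members had higher shares in precursor cells, at 25.7% against 10.9% for Jag1, 25.7% against 12.4% for Rbpj, 14.3% against 0.775% for Rfng and 11.4% against 1.55% for Mfng, while Notch1 was read in 5.71% against 16.3%. None of these 4 was higher in each of the 4 captures, where 50.9% of the 2156 genes above were. These 4 were each read in under 20% of thinned cells. Jag1 was at 0% against 21.4% in capture 32, Rbpj at 12.5% against 14.3% in capture 40, and Rfng and Mfng at 0% against 5% in capture 28.

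Neither receptor passed edgeR's test between the classes. Both were lower in the precursor class in each of the 4 captures. The share of all genes with a lower level in each of the 4 captures was not computed. The direction therefore cannot be told from a change shared with many genes. Notch2 was at 77.6 CPM in precursor cells and 223 in other cells of capture 9c, 142 and 660 in capture 40, 38.1 and 235 in capture 28, and 46.1 and 185 in capture 32. With capture as a block, its log2 difference was -2.85 (SE 0.98), with an unadjusted p of 0.00925 and an adjusted p of 0.303 by edgeR. Notch2 was read in 62.9% of precursor cells and 66.7% of other cells. Notch1 was at 1.48 and 10.8 CPM in capture 9c, 0 and 2.74 in capture 40, 0.967 and 129 in capture 28, and 0.238 and 14.7 in capture 32, and its log2 difference was -6.51 (SE 2.67, edgeR adjusted p 0.421). DESeq2 called Notch1, with an adjusted p of 2.66e-04. In capture 28, a single cell held 3227 of the 3829 Notch1 reads of other cells.

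None of the 8 members tested passed edgeR's test between the classes, in which 9 genes were higher and 52 lower in the precursor class (0.544% of those tested). DESeq2 called 980 higher and 886 lower. Lfng had a log2 difference of -1.88 (SE 2.01) and was read in 45.7% of precursor cells and 46.5% of others. Rfng was at 30.98 and 0 CPM in capture 9c, 66.1 and 0.0347 in capture 40, and 30.6 and 0.121 in capture 32, and the other way round, at 1.24 and 43.3, in capture 28. Its log2 difference was 7.52 (SE 4.18, edgeR adjusted p 0.521), and DESeq2 called it with an adjusted p of 0.00109. The difference was 3.20 with the class rule at 500 CPM and 1.01 with no capture block. In capture 28, a single cell held all 1284 Rfng reads of other cells. The median over the 8 members was -1.06, against 0.18 over all genes tested.

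**Figure D5:**
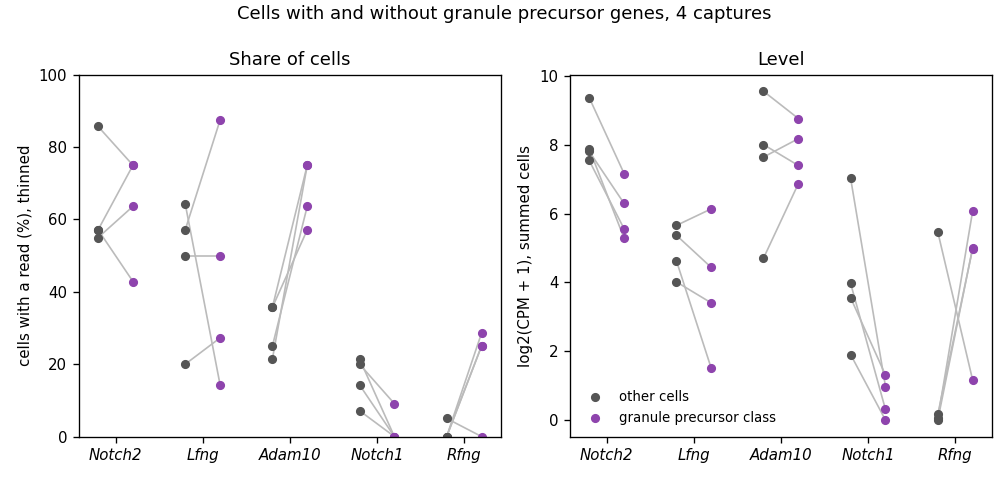
Share of thinned cells with a read (left, percent) and level as log2(CPM + 1) of summed cells (right) for 5 genes, in other cells (grey) and cells of the granule precursor class (purple), with lines joining the classes of one capture, 4 captures in all. Adam10 is read in more precursor cells in each capture, and the levels of Notch2 and Notch1 are lower in precursor cells in each capture. None of the 5 genes passed edgeR's test between the classes.

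The rest of the pathway was described with a list of 54 other Notch genes, all found in the table. Hes5, Nrarp, Dll3 and Jag2 had no read in any cell, and 10 of the 54 were read in at least 20% of thinned cells. Among the highest per length were Psenen, a gamma-secretase subunit, at 65.6 ± 68.2 CPM per kb (SD, n = 12), Neurl3, a ubiquitin ligase, at 59.9 ± 129, and Ncor1, a corepressor, at 25.8 ± 26.6. Nedd4, another ubiquitin ligase, was at 22.6 ± 43.6. Between ages, 32 of the list were tested and none passed edgeR's test, with 17 higher and 15 lower at P120 and an unadjusted p under 0.05 for 2. Between classes, 37 were tested and none passed, with 19 higher and 18 lower in the precursor class and an unadjusted p under 0.05 for 5. The medians of the log2 differences were 0.26 between ages, against 0.26 over all genes, and 0.11 between classes, against 0.18.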

How the data were processed

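Cells were captured and amplified on Fluidigm C1 chips (SMARTer chemistry), and the authors aligned reads with STAR to the mouse genome (mm10, GENCODE vM11) with an EGFP sequence added, removed outlier and endothelial cells, and deposited raw read counts per gene and cell. No entry named EGFP is in the table used here. The deposited metadata gave age, capture, sequencing run, uniquely mapped reads (counts) and a normalized GFP intensity, a score whose scaling by the authors is not given in the sources used here. Of 48709 genes, 48349 matched a symbol, and 92 spike-ins were left out of library sizes. Gene positions are from GENCODE vM21 (GRCm38).

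Counts were summed per capture and tested with edgeR 4.0.16 (TMM, filterByExpr, quasi-likelihood, adjusted p under 0.05), with DESeq2 1.42.0 as an alternative, in R 4.3.3. Single values were tested by exact permutation over captures in SciPy. For shares, the 164 cells with at least 50000 reads were thinned to 50000. The fits were tested on simulated data. A pseudocount of 1 was used on log scales, so folds of low genes are understated. No 2 cells held identical counts. The text names all 10 members, the 5 pathway genes highest per length (none passed a test, and 1 is not reported here) and the 3 genes most like each member read in at least 20% of cells. The members and lists were chosen with earlier results of these data known. Alternatives were other tools and filters, other depths and read minimums, run as a covariate, leaving out each capture and, added after seeing the data, leaving out cells with supporting cell genes and comparing GFP within runs.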

Additional observations from a re-analysis of the deposited data

Results flagged for a closer look

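In 6 of 17 gene and age groups whose captures were not all at 0, 1 capture lay far from the others, as judged by the gap to its nearest neighbour over the whole range. The cut gives about 1 in 20 by chance in normally distributed values. Many of these groups hold zeros and skewed levels, so 6 of 17 cannot be set against that rate. At P60 these were Notch1 in capture 31 (105.4 CPM, next highest 17.1), Mfng in capture 40 (29.8 CPM, next 3.93) and Jag1 in capture 21c (199 CPM, next 43.04). At P120 they were Notch1 in capture 28 (86.8 CPM, next 7.40), Lfng in capture 36 (75.7 CPM, next 22.1) and Hes1 in capture 28 (3.50 CPM, next 0.0599). In all 6 a single cell held most of the gene's reads in that capture, from 69.7% for Notch1 in capture 31 and 76.1% for Lfng in capture 36 to 98.8% for Mfng in capture 40. For Jag1, 2 cells of capture 21c, those with strong Otog reads, held 99.8%.

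The difference between the granule precursor class and other cells had opposite signs at the 2 ages for Jag1 and Mfng, which was not tested. For Jag1 it was 9.47 CPM in capture 9c and 2.07 in capture 40 at P60, and -13.9 in capture 28 and -9.85 in capture 32 at P120. For Mfng it was 10.96 in capture 9c and 103.4 in capture 40, and -0.836 in capture 28 and -32.1 in capture 32. Several of these values rested on few reads or a single cell. In capture 28, a single cell held 1851 of the 1999 Jag1 reads of other cells. In capture 40, a single cell held 1185 of the 1187 Mfng reads of precursor cells. Mfng in capture 28 had 5 reads in precursor cells and 35 in other cells.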

How the results depend on the processing

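None of the 8 members tested passed between the ages in any of 19 alternatives (148 values), with a lowest adjusted p of 0.566. DESeq2 gave no adjusted p for Lfng, Mfng and Rfng, so those values could not pass. The number of genes called moved. It was 10 in the main test, 21 with DESeq2, 42 with DESeq2 size factors in edgeR, 22 with no filter, 6 without cells under 10000 reads, 0 with run as a covariate and 2 within the S059 runs. With no filter, Hes1 was tested too, at a log2 difference of 6.81 (unadjusted p 0.00258, edgeR adjusted p 0.0819), with 153 of its 158 reads in 1 cell. Leaving out 1 capture gave 1 to 16 genes, the lowest without capture 10c and the highest without 21c. The median log2 difference of all genes was 0.26 in the main test and 0.76 with DESeq2. With run as a covariate and within the S059 runs, the sign turned for Notch1 (-1.61 and -1.56), Rfng (-0.019 and -0.0039), Jag1 (0.48 and 0.54) and Rbpj (-0.31 and -0.26). Leaving out captures gave -1.52 to 2.42 for Notch1, -1.56 to 0.68 for Lfng, which was negative only without capture 36, and -1.13 to 0.12 for Adam10.

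Between classes, 61 genes were called in the main test, 1866 with DESeq2, 133 with no filter, 3 with no replicate block, and 22 to 125 without 1 capture, the lowest without 9c and the highest without 32. 3 of 89 member values passed: Notch1 and Rfng with DESeq2 and Notch2 with the class set at 10 reads in all cells (log2 difference -3.19, edgeR adjusted p 0.0455). Rfng fell to 3.20 with the class rule at 500 CPM and 1.01 with no block. Rbpj turned to -0.14 with the class rule at 500 CPM and -0.43 without the block. Leaving out captures gave -0.91 to 5.60 for Mfng, -0.56 to 1.07 for Rbpj and -1.03 to 0.19 for Adam10. Without cells holding supporting cell genes, 14 genes were called between ages and 70 between classes, none a member. Captures within an age carry no numbers that pair them across ages, so no paired analysis was possible because the ages share no capture.

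No share passed the exact permutation test between the ages under any alternative. Thinned to 200000 reads, the Notch1 difference was -21.99 percentage points (exact permutation p 0.0286, adjusted 0.257). Over all cells without thinning, Notch2 turned to 15.2 percentage points higher at P120. Without 1 capture the difference ranged from -1.37 to 2.08 for Rfng, -4.30 to 3.70 for Jag1, -6.66 to 1.11 for Rbpj and -3.79 to 10.5 for Adam10. The step that passed in the order of levels was 1 in both alternatives. The GFP difference of cells with an Lfng read turned to -28.3 units within capture and run, was 51.4 over all cells and 47.9 with at least 10 reads (7 of 9 captures higher), and ranged from -24.2 to 34 without 1 capture, negative without 9c, 31 or 32. That of Mfng turned to 22.7 over all cells and 19.1 with at least 10 reads. No GFP result passed its test. The cause of these changes was not tested. In genes read in under 20% of cells, the depth and the few cells per capture limit what can be seen.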
